A study of Homo sapiens with 12 samples.

Results

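Metallothionein genes and MTF1, the gene of the transcription factor that switches them on, were followed by RNA sequencing in 12 libraries of the human hepatocellular cancer line HepG2. The genes were chosen by symbol: MT2A, MT1E, MT1F, MT1G, MT1M and MT1X encode metallothioneins, and MTF1 encodes metal regulatory transcription factor 1. These 7 genes were among 62475 in the deposited table, and 4 of them (MT2A, MT1E, MT1F and MTF1) were among the 14435 genes whose counts were high enough to be tested. The cells carried the HDAC1_S434A mutant (S434A), in which a serine of the class I histone deacetylase HDAC1 is replaced by alanine, or wild-type HDAC1 (WT). Each genotype was sequenced with and without the protein kinase A (PKA) inhibitor H89, which gives S434A with H89, S434A without H89, WT with H89 and WT without H89, with 3 biological replicates in each of the 4 groups. The design asks what the mutation changes, what H89 changes, and whether H89 acts alike in both genotypes. The sources used here do not give the dose and duration of H89, the way the mutant cells were made or the number of clones behind them.

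Metallothioneins are small cysteine-rich proteins that bind zinc and copper through the thiols of their cysteines, and they also bind cadmium when cells meet it. MTF1 is a zinc finger protein that responds to a rise in free zinc by binding metal response elements, short DNA motifs upstream of metallothionein genes and of the zinc exporter gene SLC30A1. The liver is a main site of metallothionein synthesis, and glucocorticoids and oxidative stress also raise the genes there.

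The coding sequences below show how alike the metallothionein genes are, since that bears on how reads are counted between them. They are from the GENCODE annotation of the GRCh38 build, 5′ to 3′ from start to stop codon, with the codons of cysteine in capitals. From start to stop codon with introns, they span, on the plus strand, chr16:56608656-56609354 for MT2A, chr16:56625852-56626971 for MT1E, chr16:56658059-56659164 for MT1F and chr16:56682541-56684049 for MT1X.
MT2A: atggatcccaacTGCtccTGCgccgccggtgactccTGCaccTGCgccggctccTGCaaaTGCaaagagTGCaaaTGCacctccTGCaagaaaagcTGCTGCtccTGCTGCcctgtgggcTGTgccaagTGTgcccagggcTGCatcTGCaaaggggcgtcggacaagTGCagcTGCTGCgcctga
MT1E: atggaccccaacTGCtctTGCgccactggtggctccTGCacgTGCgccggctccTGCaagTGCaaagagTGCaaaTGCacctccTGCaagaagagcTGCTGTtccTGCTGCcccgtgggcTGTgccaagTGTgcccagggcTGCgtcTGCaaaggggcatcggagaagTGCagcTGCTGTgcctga
MT1F: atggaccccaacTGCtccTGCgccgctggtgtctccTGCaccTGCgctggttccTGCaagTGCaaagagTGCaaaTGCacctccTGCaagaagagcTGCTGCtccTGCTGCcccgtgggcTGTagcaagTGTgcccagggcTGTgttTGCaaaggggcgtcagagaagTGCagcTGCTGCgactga
MT1X: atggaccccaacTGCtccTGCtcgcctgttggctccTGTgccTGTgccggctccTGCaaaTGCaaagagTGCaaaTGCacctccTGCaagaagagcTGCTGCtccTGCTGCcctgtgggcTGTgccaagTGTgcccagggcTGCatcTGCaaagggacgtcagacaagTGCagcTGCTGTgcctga
Each of the 6 metallothionein coding sequences had 186 bases with its stop codon, and 20 of its 61 codons (32.8%) were for cysteine. MTF1 had 21 cysteine codons among 753 (2.79%). Between pairs of the 6 metallothioneins, identity ran from 88.7% (MT1F and MT1X) to 95.2% (MT1G and MT2A), with no gap in any alignment. MT2A differed from MT1E at 14 of 186 bases, from MT1F at 16 and from MT1X at 14.

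Near-identical copies can share reads. Of all stretches of 50 bases in the transcript, 45.1% in MT1X also occurred without a mismatch in another gene of the annotation, against 20.2% in MT1G, 7.05% in MT1M, 5.34% in MT1E, 4.88% in MT2A and 3.59% in MT1F. For MT1X the other genes included MT1A, MT1F, MT1G, MT1M and MT2A. Read length and the treatment of reads with several matches are not stated in the labels or headers, so the counts of MT1X and MT1G are the least certain of the family.

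The 250 bases upstream of the RefSeq start of MT2A (GRCh38.p14, chr16:56608334-56608583, plus strand) and of MT1X (chr16:56682220-56682469, plus strand) show the motifs through which MTF1 is known to act. Capitals mark the core of the metal response element, searched as TGCACNC and TGCGCNC on both strands.
MT2A upstream: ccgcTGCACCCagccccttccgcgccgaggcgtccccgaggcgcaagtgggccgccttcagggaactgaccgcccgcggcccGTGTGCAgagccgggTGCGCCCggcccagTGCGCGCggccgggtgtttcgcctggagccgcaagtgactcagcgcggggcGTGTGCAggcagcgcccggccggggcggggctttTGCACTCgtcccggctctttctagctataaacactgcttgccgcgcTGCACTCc
MT1X upstream: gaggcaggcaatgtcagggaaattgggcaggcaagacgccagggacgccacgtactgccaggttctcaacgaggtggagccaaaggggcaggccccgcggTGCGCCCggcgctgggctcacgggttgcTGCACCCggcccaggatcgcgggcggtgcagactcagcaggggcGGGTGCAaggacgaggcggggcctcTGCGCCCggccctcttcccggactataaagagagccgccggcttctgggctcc
MT2A held 7 cores and MT1X 4, none overlapping another core. Of the 4 cores of MT1X, 1 overlapped a GC box (GGGCGG on either strand) or a TATA box (TATAAA on either strand), and none of those of MT2A did. At least 1 core was present in 24.8% of 35116 RefSeq promoters of this length, at least 4 cores in 0.208% (73 promoters) and at least 7 in 8 promoters. MTF1 itself had 0 cores in its window. These 3 genes of the 7 were matched in the promoter table, and a match of letters is a description of the sequence, not of binding.

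Total counts ran from 17562754 to 37187794 read pairs per library. Levels are given as CPM, counts scaled to the size of the library with TMM factors. These factors were 1.0035 to 1.0963 in 9 libraries and 0.832 to 0.845 in the 3 of WT without H89. The summed level of 8 hepatocyte and HepG2 markers (ALB, AFP, APOA1, TF, SERPINA1, FGB, HNF4A and TTR), none of them at 0, was 37410 to 38880 CPM in S434A with H89, 33090 to 49870 in S434A without H89, 36710 to 40970 in WT with H89 and 71540 to 71970 in WT without H89. The 8 markers did not move together. Without H89, 3 were higher and 5 lower in S434A than in WT by adjusted p under 0.05 in edgeR, against 29.0% and 29.3% of tested genes. ALB, the highest of them, had 14600 CPM in S434A and 37070 CPM in WT, whereas HNF4A had 304 and 152 CPM. The sum of 6 fibroblast markers stayed at or below 0.189 CPM in every library, and 7 markers of blood and endothelial cells summed to 6.18 to 12.5 CPM. The biological coefficient of variation between replicates was 0.0547 in S434A with H89, 0.351 in S434A without H89, where replicate 1 stood apart, 0.0733 in WT with H89 and 0.0191 in WT without H89. The part of these make-up differences in the results was not tested. Changes also moved with gene length and base composition: across tested genes, the log2 fold change with H89 had a Spearman rho with length of 0.37 in S434A and 0.46 in WT, and a rho with GC content of -0.66 in S434A and -0.08 in WT. For this reason, values after removal of a smooth trend in length and GC content, fitted to each library, are given beside many H89 results. They were chosen mainly where the removal changed a call or direction or moved a value by over 1.5 times. A gene named without such a value can still have moved. The labels call the replicates biological but do not say that they came from separate cultures, so p-values measure the spread between these libraries.

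MT2A, the ubiquitous metallothionein, was the main family member in these cells. Its gene (ENSG00000125148.7_5) lies on the plus strand of hg19 chromosome 16 at 56642496 to 56643409. It had 59.1, 60.3 and 53.4 CPM in S434A with H89, and 111, 98.9 and 102 CPM in S434A without H89. In WT with H89 it had 57.8, 53.6 and 55.0 CPM, against 101, 108 and 102 CPM in WT without H89. All 6 libraries with H89 were below all 6 libraries without it, and the genotypes overlapped in both conditions. Within a genotype, libraries with H89 all lay below those without it for 23.2% of tested genes in S434A and 35.5% in WT. These values rest on 1167 to 3142 read pairs per library. Per kilobase of merged exon, the MT2A level was above that of 96.3% of tested genes in S434A with H89, 97.6% in S434A without H89, 96.1% in WT with H89 and 96.6% in WT without H89.

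MT2A fell with H89 in both genotypes. The means were 57.6 ± 3.67 CPM in S434A with H89, against 104 ± 6.35 CPM in S434A without H89 (SD, n = 3). The log2 fold change was -0.85 (SE 0.0706, adjusted p = 2.15e-05 in edgeR). They were 55.5 ± 2.13 CPM in WT with H89, against 104 ± 3.92 CPM in WT without H89, for a log2 change of -0.90 (SE 0.0706, adjusted p = 7.92e-07 in edgeR). Both changes were smaller than the 2-fold bound of the study's call rule. The order of levels was S434A without H89, WT without H89, S434A with H89 and WT with H89, and the first pair and the last pair did not differ beyond their spread.

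The fall of MT2A depended on the correction for length and GC content. With the trend removed it was -0.44 in S434A (adjusted p = 7.74e-05 in edgeR) and -0.01 in WT (adjusted p = 0.911 in edgeR). The trend itself put MT2A at -0.363 to -0.349 in WT with H89 and at 0.509 to 0.560 in WT without H89, on the log2 scale relative to the mean of all libraries. MT2A is a short gene, with 914 bases of merged exon and 53.9% GC. Across the 816 tested genes under 1 kb, the median log2 fold change with H89 was -0.27 in S434A and -0.85 in WT, and MT2A at -0.90 in WT was close to that median. The part of length and GC content in the fall was not tested.

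**Figure D1:**
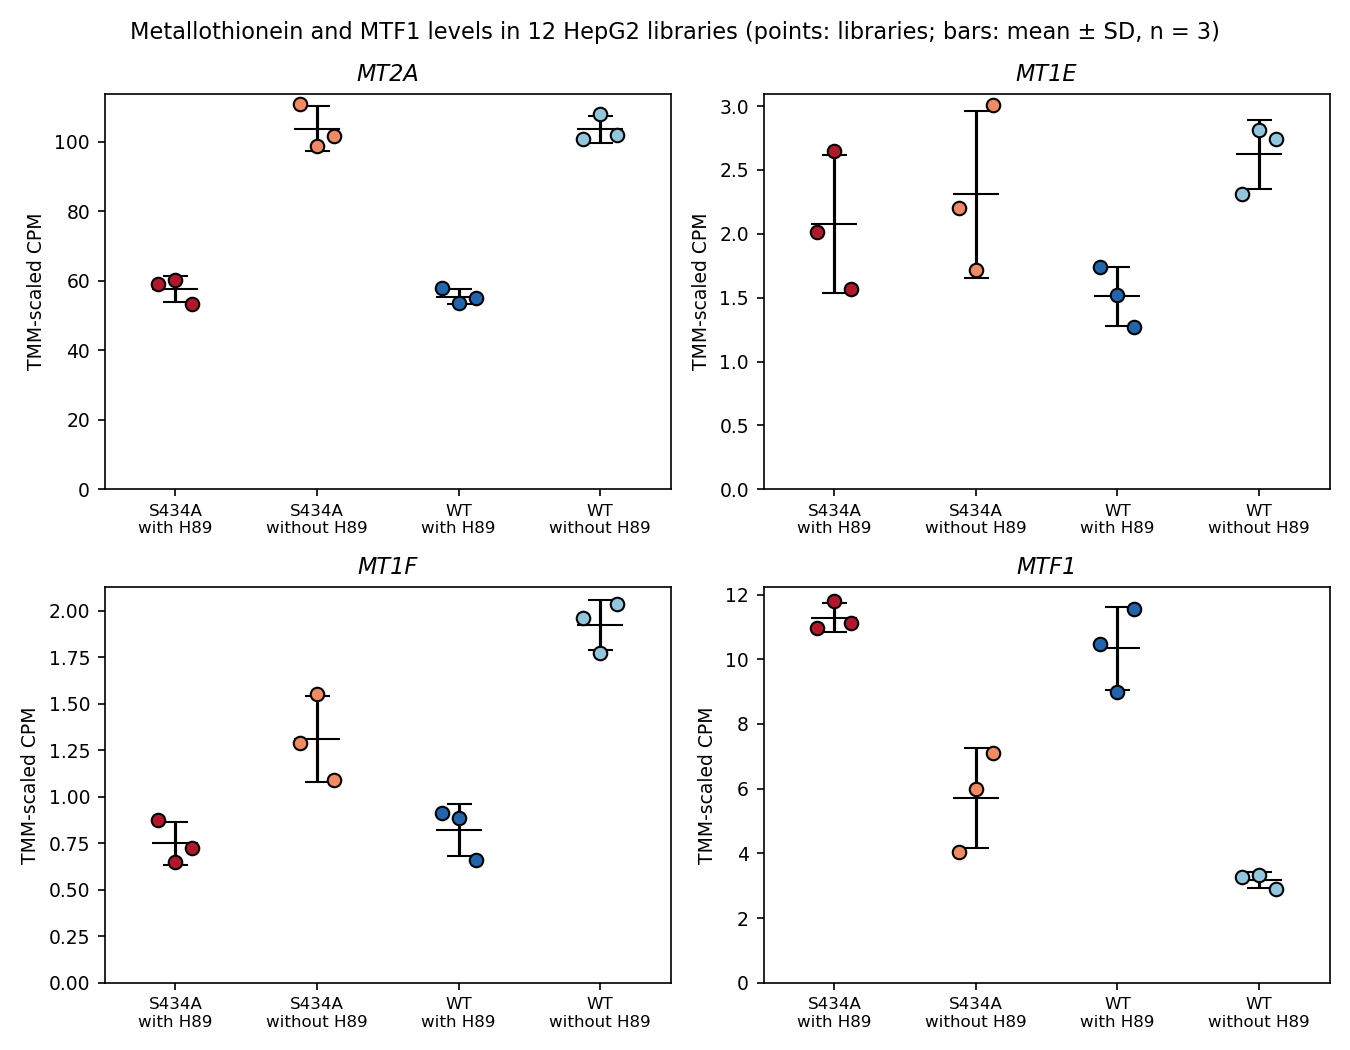
TMM-scaled CPM of MT2A, MT1E, MT1F and MTF1 in each of 12 libraries (points), with the mean and SD of each group of 3 (bars), S434A with H89 at the left and WT without H89 at the right. The 6 libraries with H89 sit between 53.4 and 60.3 CPM for MT2A, below the 98.9 to 111 CPM of the others, while MTF1 is at 8.99 to 11.8 CPM with H89 and at 2.89 to 7.12 CPM without it.

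MT1E and MT1F, metallothioneins of the MT1 subfamily, were low beside MT2A. The mean level per kilobase of merged exon was 1.98, 2.20, 1.44 and 2.49 CPM for MT1E and 0.405, 0.708, 0.443 and 1.04 CPM for MT1F in S434A with H89, S434A without H89, WT with H89 and WT without H89. On the same scale MT2A was at 63.0, 114, 60.7 and 113 CPM. MT1E, 16.9 kb downstream of the start of MT2A, had 2.02, 2.65 and 1.57 CPM in S434A with H89, against 2.21, 1.72 and 3.01 CPM in S434A without H89. In WT with H89 it had 1.74, 1.52 and 1.27 CPM, against 2.31, 2.82 and 2.74 CPM in WT without H89. The S434A groups overlapped, whereas the WT groups did not, as for 35.5% of tested genes in the lower direction. The counts behind these values were 27 to 74 read pairs per library.

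MT1E fell with H89 in WT, where the log2 fold change was -0.79 (SE 0.236, adjusted p = 0.0116 in edgeR), with means of 1.51 ± 0.233 CPM with H89 and 2.62 ± 0.271 CPM without it (SD, n = 3). In S434A the means were 2.08 ± 0.540 CPM with H89 and 2.31 ± 0.654 CPM without it, and the log2 fold change of -0.17 (SE 0.238, adjusted p = 0.576 in edgeR) did not pass the test. Neither passed with the trend removed, at 0.23 in S434A and 0.09 in WT. The order of the means was WT without H89, S434A without H89, S434A with H89 and WT with H89, and each neighbouring pair in it overlapped.

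MT1F lies 49.1 kb downstream of the start of MT2A. It had 0.877, 0.650 and 0.726 CPM in S434A with H89, against 1.29, 1.55 and 1.09 CPM in S434A without H89. In WT with H89 it had 0.914, 0.886 and 0.660 CPM, against 1.96, 1.78 and 2.04 CPM in WT without H89. No library with H89 reached the lowest library without it, and in the absence of H89 all 3 S434A libraries were below all 3 WT libraries. Such separation occurred with H89 for 23.2% of tested genes in S434A and 35.5% in WT, and between the genotypes without H89 for 33.7%. Each value rests on 14 to 61 read pairs.

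MT1F fell with H89 in both genotypes. Its means were 0.751 ± 0.116 CPM in S434A with H89, against 1.31 ± 0.231 CPM in S434A without H89 (SD, n = 3). The log2 fold change was -0.79 (SE 0.199, adjusted p = 0.00813 in edgeR). They were 0.820 ± 0.140 CPM in WT with H89, against 1.92 ± 0.134 CPM in WT without H89, for a log2 change of -1.22 (SE 0.176, adjusted p = 9.36e-05 in edgeR). MT1F was thereby the metallothionein that passed the 2-fold rule. With the trend removed the fall in WT was -0.65 (adjusted p = 0.00608 in edgeR) and that in S434A was -0.40 (adjusted p = 0.196 in edgeR). The call in S434A was also lost with only the groups compared (adjusted p = 0.0523 in edgeR) and with a weight per group (adjusted p = 0.159 in limma-voom). From high to low, the order was WT without H89, S434A without H89, WT with H89 and S434A with H89, and of these neighbours only the last pair overlapped.

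MT1X, MT1G and MT1M were too low to test in the main fit. MT1X had 7, 8 and 7 read pairs in S434A with H89, against 7, 12 and 11 in S434A without H89. In WT with H89 it had 5, 4 and 9 read pairs, against 15, 9 and 15 in WT without H89. After scaling, the S434A libraries with H89 were at or below 0.371 CPM and those without it at or above 0.377 CPM, but their read pairs overlapped. In S434A, 23.2% of tested genes had libraries with H89 below those without it. The WT groups of MT1X overlapped. With only the groups compared, 4 members fell with H89 in WT by adjusted p, where the main fit called 3. A member beyond MT2A, MT1E and MT1F, by its counts MT1X, thus passed the filter and the test there. By the 2-fold rule 2697 of 14157 tested genes were called lower in that setting. Mean levels were 0.320 ± 0.0461, 0.538 ± 0.147, 0.274 ± 0.134 and 0.476 ± 0.0829 CPM in the same 4 groups (SD, n = 3). MT1G had 3, 2 and 5 read pairs in S434A with H89, and it had 0, 0 and 1 in S434A without H89. It had 2, 0 and 3 in WT with H89, against 3, 3 and 4 in WT without H89. MT1M had 0 read pairs in all 12 libraries, which at a floor of 3 counts allows 0.0964 to 0.166 TMM-scaled CPM depending on the library. The floor covers counting error only.

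Most of the metallothionein cluster on chromosome 16 was at or near 0. Of 14 other metallothionein genes and pseudogenes listed, 13 were in the table and 0 passed the filter, so none could be tested with edgeR, limma or DESeq2. MT1A, the highest of them, had 87 read pairs over the 12 libraries, whereas MT3 had 1 and MT4 had 2. Summed over the 19 metallothionein genes in the table, the level was 61.2 ± 3.97 CPM in S434A with H89, against 109 ± 6.10 CPM in S434A without H89 (SD, n = 3). The sum was 58.4 ± 2.39 CPM in WT with H89, against 109 ± 3.93 CPM in WT without H89. MT2A made up 94.2 ± 0.127% of the summed counts in S434A with H89, 95.7 ± 0.569% in S434A without H89, 94.9 ± 0.227% in WT with H89 and 94.9 ± 0.289% in WT without H89. Fewer cells that express a gene and less RNA per cell cannot be told apart in these bulk libraries.

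**Figure D2:**
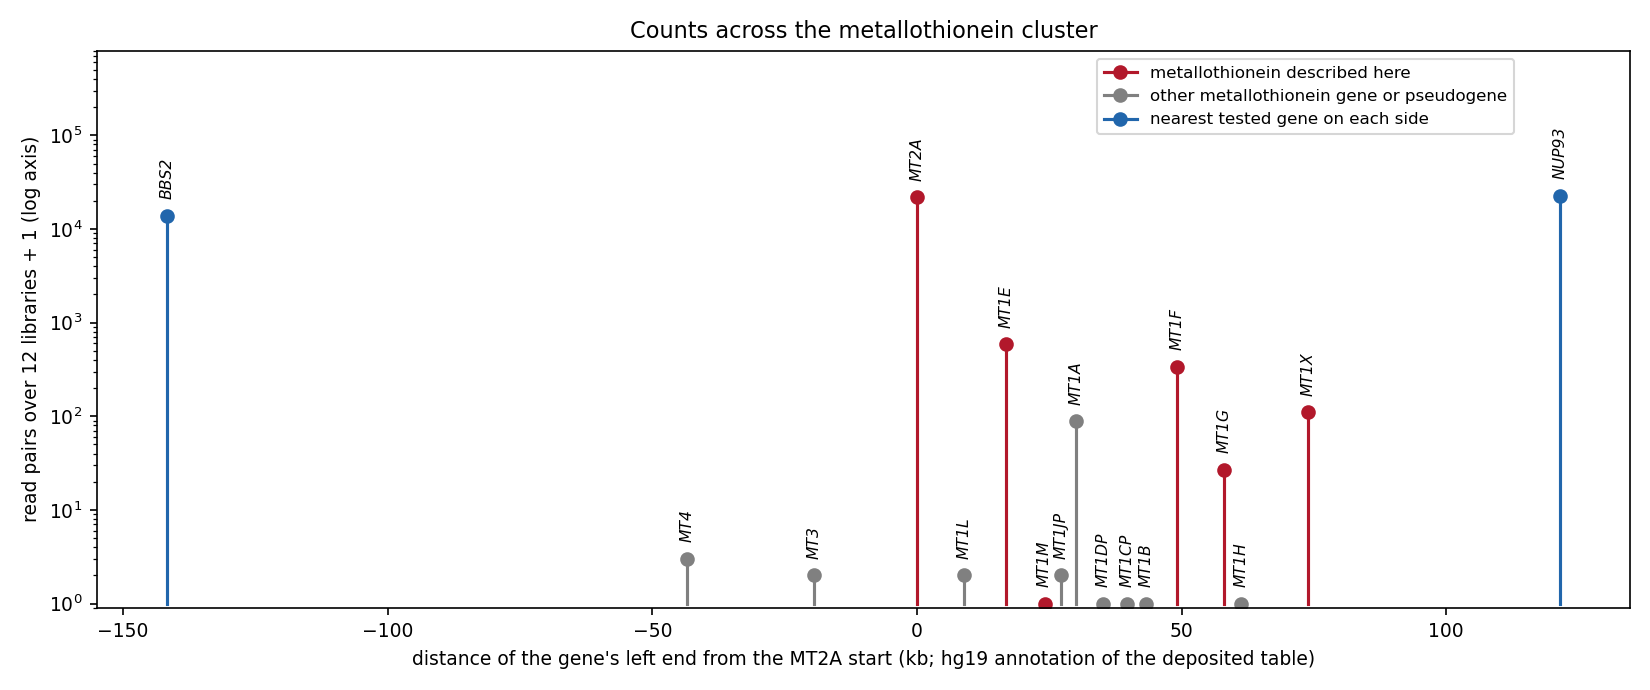
Read pairs summed over the 12 libraries plus 1 (log axis) for each gene by the distance of its left end from the MT2A start in kb. MT2A stands at 21866 read pairs, MT1E at 584 and MT1F at 337, whereas most of the cluster has fewer than 3 read pairs, and the tested genes beside it, BBS2 and NUP93, have 13884 and 22722.

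The nearest tested genes on either side of the cluster were BBS2 and NUP93. BBS2, a gene of the BBSome of primary cilia, had a small log2 fold change with H89, of 0.28 in S434A (adjusted p = 0.0222 in edgeR) and 0.22 in WT (adjusted p = 0.0449 in edgeR). NUP93, a nuclear pore gene, fell with H89 in S434A by 0.58 on the log2 scale (adjusted p = 0.00476 in edgeR) and stood at 0.16 in WT (adjusted p = 0.296 in edgeR). The BBS2 calls passed in 4 of 12 fits with 1 library left out in S434A, at values of 0.11 to 0.36, and in 2 of 12 in WT, at values of 0.05 to 0.23. BBS2 turned to -0.86 in S434A and -0.54 in WT, and NUP93 to -1.02 and -0.60, once the trend was removed.

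MTF1, the regulator, was higher in the libraries with H89. The gene (ENSG00000188786.10_6) lies on the minus strand of hg19 chromosome 1 at 38275246 to 38325264. It had 10.96, 11.8 and 11.1 CPM in S434A with H89, and 4.04, 5.98 and 7.12 CPM in S434A without H89. In WT with H89 it had 10.5, 8.99 and 11.6 CPM, against 3.28, 3.34 and 2.89 CPM in WT without H89. Every library with H89 was above every library without it, and without H89 every S434A library was above every WT library. Separation in these directions occurred with H89 for 33.1% of tested genes in S434A and 47.6% in WT, and between the genotypes without H89 for 29.0%. The counts were 75 to 276 read pairs per library.

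MTF1 rose with H89 in both genotypes. Its means were 11.3 ± 0.440 CPM in S434A with H89, against 5.71 ± 1.56 CPM in S434A without H89 (SD, n = 3). The log2 fold change was 0.98 (SE 0.182, adjusted p = 0.00183 in edgeR). They were 10.3 ± 1.28 CPM in WT with H89, against 3.17 ± 0.243 CPM in WT without H89, for a log2 change of 1.70 (SE 0.186, adjusted p = 1.13e-05 in edgeR), or 3.26-fold. The rise of MTF1 passed with the trend removed too, by 0.69 in S434A (adjusted p = 0.00151 in edgeR) and by 1.24 in WT (adjusted p = 3.38e-06 in edgeR). From high to low, the order was S434A with H89, WT with H89, S434A without H89 and WT without H89, and of these neighbours only the first pair overlapped.

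The members' calls with H89 are read here against those of all tested genes. By the 2-fold rule with H89 in WT, MTF1 was the 1 member called higher, where 22.2% of tested genes were, and MT1F the 1 called lower, where 15.8% were. By adjusted p alone, 1 member rose and 3 fell in WT, against 38.8% and 30.9% of tested genes. In S434A the 2-fold rule called 0 members higher and 0 lower, against 15.2% and 2.35% of tested genes, and limma-voom called 1 higher and DESeq2 0. By adjusted p alone, 1 member rose and 2 fell in S434A, against 29.3% and 22.7% of tested genes, and 3 of the 4 had an unadjusted p under 0.05. In S434A the libraries with and without H89 did not overlap for 1 of the 4 tested members in the higher and 2 in the lower direction, against 33.1% and 23.2% of tested genes. In WT they did not overlap for 1 and 3 members, against 47.6% and 35.5% of tested genes. The share of tested genes whose libraries with H89 all lay apart from those without it, over both genotypes together, was not counted. The median log2 fold change of the 4 tested members was -0.48 in S434A and -0.84 in WT, against 0.01 and 0.20 over all tested genes. With this many genes called, the counts are not a result particular to the members.

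The mutation was compared with WT in the absence of H89 to ask what it changes in untreated cells. MTF1 was higher in S434A, at 5.71 ± 1.56 CPM against 3.17 ± 0.243 CPM in WT (SD, n = 3). The log2 fold change was 0.85 (SE 0.189, adjusted p = 0.00251 in edgeR). MT1F was lower in S434A, at a log2 change of -0.56 (SE 0.168, adjusted p = 0.0142 in edgeR). MT2A stood at 0.00 (SE 0.0699, adjusted p = 0.976 in edgeR) and MT1E at -0.17 (SE 0.228, adjusted p = 0.547 in edgeR). Thus 1 member rose and 1 fell by adjusted p, against 29.0% and 29.3% of tested genes, and the same members were those whose libraries did not overlap, against 29.0% higher and 33.7% lower among tested genes. No member passed the 2-fold rule in either direction, against 11.6% and 11.3% of tested genes.

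Replicate 1 of S434A without H89 held the lowest MTF1 level of its group. Without it the MTF1 change between the genotypes was 1.05 (adjusted p = 2.31e-05 in edgeR) and passed the 2-fold rule, and MT1F stood at -0.55 (adjusted p = 0.0349 in edgeR). Leaving out replicate 3 ended the call for MT1F, at -0.44 (adjusted p = 0.0701 in edgeR). The MT1F call was also lost with only the groups compared, at -0.35 (adjusted p = 0.175 in edgeR), and with a weight per group, at -0.56 (adjusted p = 0.271 in limma-voom). On the scale with the trend removed, MTF1 stood at 0.68 (adjusted p = 0.00165 in edgeR), MT1F at -0.42 (adjusted p = 0.0601 in edgeR) and MT2A at 0.43 (adjusted p = 2.10e-05 in edgeR). MT2A was higher in S434A on that scale and not as counted.

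With H89 present, no member passed the test between the genotypes. MT2A had 57.6 ± 3.67 CPM in S434A and 55.5 ± 2.13 CPM in WT (SD, n = 3). The log2 fold change was 0.05. The log2 fold changes of MT1E, MT1F and MTF1 were 0.45, -0.13 and 0.13. None of the 4 members passed, each with an adjusted p of 0.9998 in edgeR, and 0 had an unadjusted p under 0.05. Over all tested genes edgeR called 0 in either direction (percentage called 0), with 589 at an unadjusted p under 0.05, and limma-voom called 0 and DESeq2 2 by adjusted p. Libraries that do not overlap occurred for 8.80% of tested genes in the higher and 8.46% in the lower direction.

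**Figure D3:**
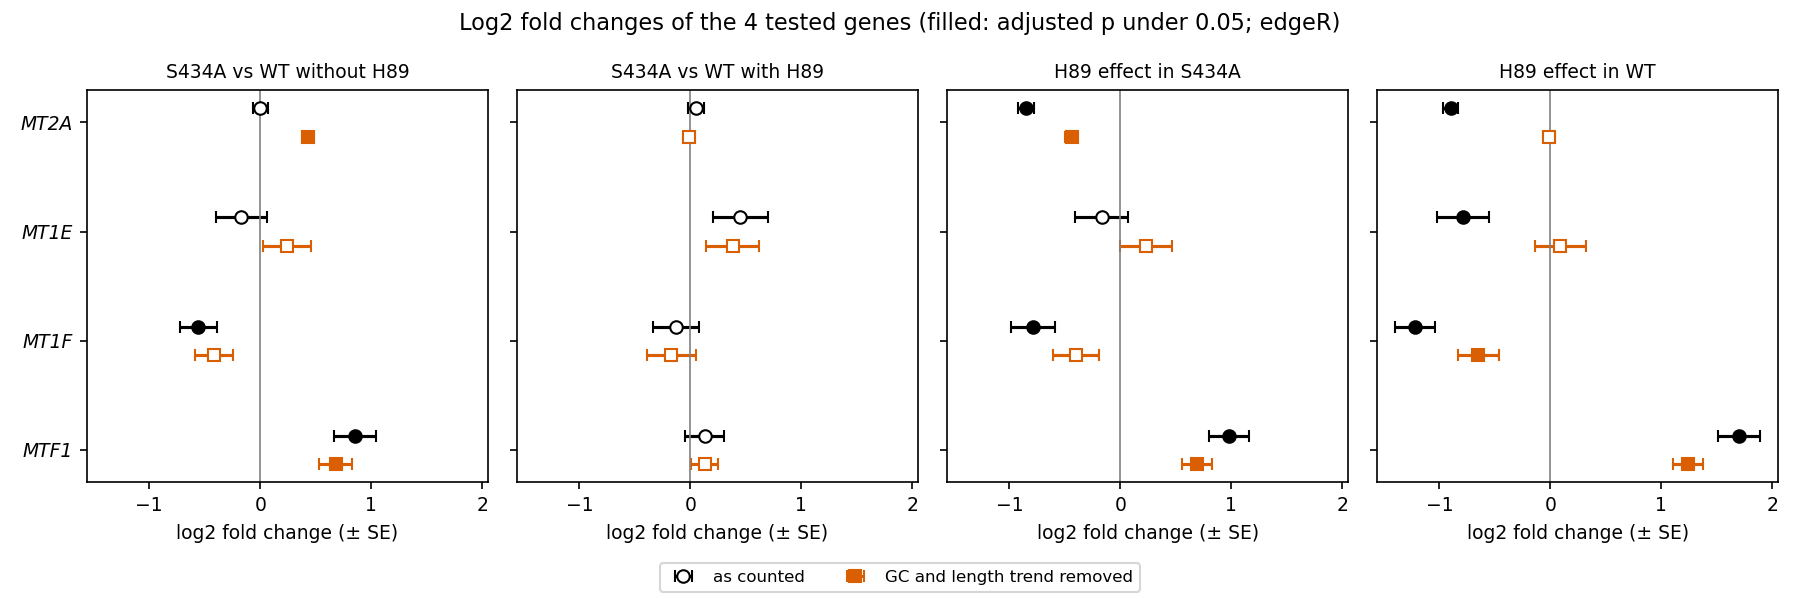
Log2 fold changes (± SE) of MT2A, MT1E, MT1F and MTF1 in 4 comparisons, as counted (black circles) and with the trend on GC content and length removed (orange squares); filled symbols have an adjusted p under 0.05 in edgeR. MT2A in WT shifts from -0.90 as counted to -0.01 with the trend removed, whereas MTF1 stays above 0 at 1.70 and 1.24.

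The test of the difference asked whether H89 acted unequally in S434A and WT. For MTF1 the H89 effect in S434A minus that in WT was -0.72 (SE 0.258, adjusted p = 0.0384 in edgeR), a smaller rise in S434A. The difference was 0.62 for MT1E (adjusted p = 0.154 in edgeR), 0.43 for MT1F (adjusted p = 0.301 in edgeR) and 0.05 for MT2A (adjusted p = 0.702 in edgeR). So 0 members were higher and 1 was lower by adjusted p, against 24.0% of tested genes in each direction, and 0 passed the 2-fold rule, against 11.7% higher and 12.4% lower. The MTF1 difference passed in 2 of 12 fits with 1 library left out, with adjusted p between 0.000681 (without replicate 1 of S434A without H89) and 0.0997 (without replicate 3 of WT with H89). It missed the test with RLE factors (adjusted p = 0.0571 in edgeR), with no filter (adjusted p = 0.0735 in edgeR), with the replicate block (adjusted p = 0.0551 in edgeR) and with a weight per group (adjusted p = 0.0805 in limma-voom), at values of -0.70 to -0.67. The MTF1 call held in 4 of 8 settings that kept the trend and all libraries. With the trend removed 2 members were lower by adjusted p, MTF1 and MT2A, against 24.3% of tested genes. For MT2A the difference was then -0.44 (adjusted p = 0.000482 in edgeR).

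**Figure D4:**
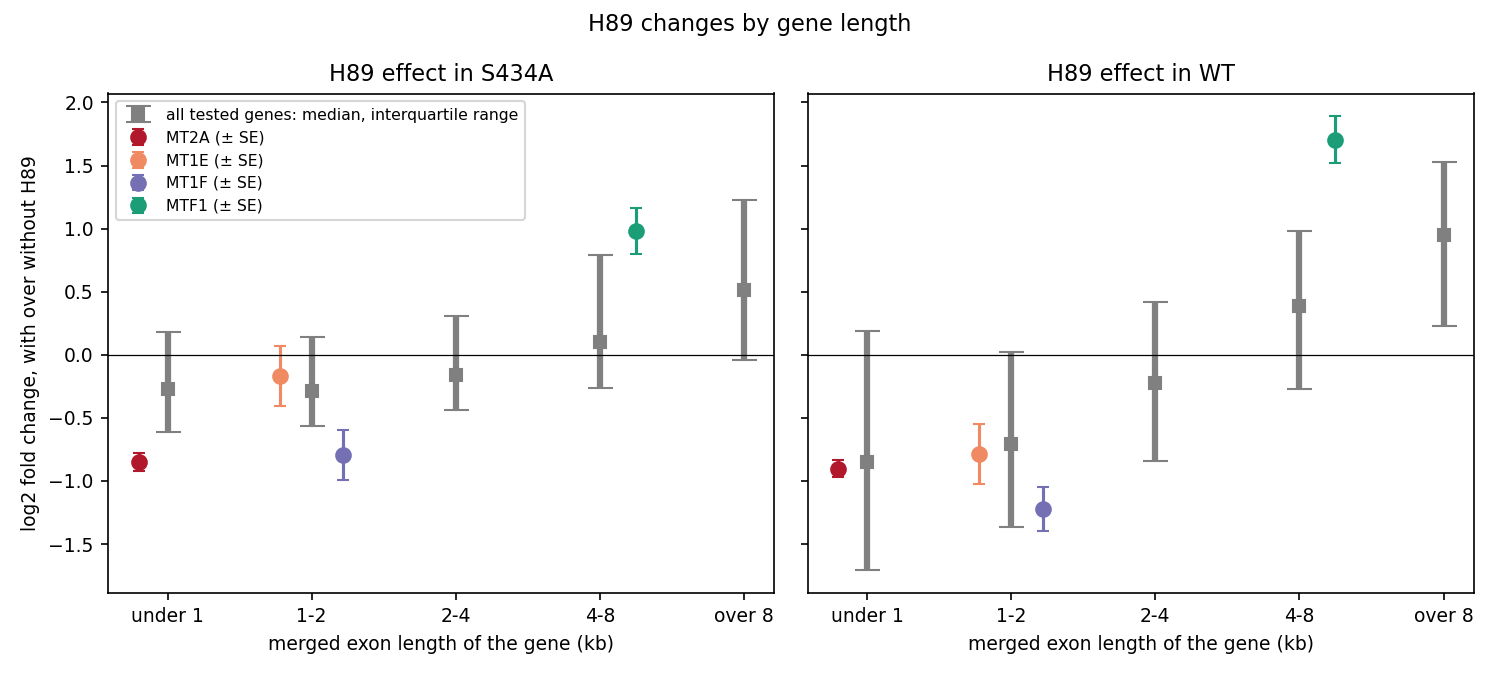
Median and interquartile range of the log2 fold change with H89 over tested genes in 5 bins of merged exon length in kb (grey), in S434A at the left and WT at the right, with the 4 members at their own bin (± SE). In WT the medians run from -0.85 under 1 kb to 0.95 over 8 kb, and MT2A at -0.90 lies at the median of its bin. MTF1, with 7989 bases, is at the upper edge of the 4 to 8 kb bin. At 1.70 it lies above the median of 0.39 there and above the upper quartile of 1.53 over 8 kb.

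Over the 12 libraries, the log2 level of MTF1 had a Pearson r of -0.95 with MT1F, -0.89 with MT2A and -0.56 with MT1E. Among metallothioneins, r was 0.86 for MT1F and MT2A, 0.67 for MT1E and MT2A and 0.52 for MT1E and MT1F. The libraries fall into groups and share their scaling, so these values describe the 4 group levels and carry no test. The tested genes with a pattern most like the sum of the 6 metallothioneins were DRG1 (r = 0.989), F10 (0.987), ACADVL (0.987), APOM (0.986) and GPX3 (0.986). Those most like MTF1 were PTPRG (0.994), USP31 (0.993), NFATC3 (0.992), LRRC8D (0.991) and ZNF697 (0.991), whose merged exons span 4852 to 14625 bases.

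Genes of the SLC30 family, listed here as zinc exporters, were mostly higher with H89 as counted. Of 7 tested among 10 listed, 6 rose and 0 fell in S434A, where 29.3% and 22.7% of all tested genes did, and 5 rose and 0 fell in WT, where 38.8% and 30.9% did. The median log2 fold changes were 0.69 in S434A and 0.97 in WT. The same shares of tested genes stand behind the H89 counts of the other lists, and with the trend removed they were 20.8% and 23.4% in S434A and 38.4% and 34.9% in WT. SLC30A1, the plasma membrane exporter and a known target of MTF1, had 34.0 CPM in S434A with H89 and 16.8 CPM without it (1.01, adjusted p = 0.000264 in edgeR). It had 36.3 CPM in WT with H89 and 14.6 CPM without it (1.31, adjusted p = 6.20e-06 in edgeR). SLC30A10, known as a manganese exporter, rose by 0.39 in S434A and 0.64 in WT, and the Golgi zinc transporter gene SLC30A7 by 0.69 and 1.04. In S434A the SLC30A10 call passed in 3 of 12 fits with 1 library left out and the SLC30A7 call in 6 of 12. Trend removal ended the calls of SLC30A10, at 0.11 in S434A and 0.09 in WT, and turned SLC30A7 to -0.67 in S434A (adjusted p = 0.0252 in edgeR), with 0.46 in WT (adjusted p = 0.0600 in edgeR). SLC30A3, a vesicular zinc transporter of neurons, rose in WT by 1.23 and stood at -0.35 in S434A (adjusted p = 0.194 in edgeR). On that scale 1 exporter rose and 2 fell in S434A and 3 rose and 0 fell in WT, with SLC30A1 at -0.25 in S434A (adjusted p = 0.442 in edgeR) and 0.88 in WT (adjusted p = 0.00768 in edgeR).

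Zinc importers moved both ways. Of 11 tested among 14 listed, 4 rose and 6 fell with H89 in S434A, and 4 rose and 3 fell in WT, with medians of -0.24 and 0.04. Trend removal left 2 that rose and 5 that fell in S434A, and 5 that rose and 4 that fell in WT. SLC39A14, the importer that brings zinc into hepatocytes during inflammation, had 715 CPM in S434A with H89 and 626 CPM without it, a log2 fold change of 0.19 (adjusted p = 0.00981 in edgeR). It had 712 CPM in WT with H89 and 412 CPM without it, a log2 fold change of 0.79 (adjusted p = 1.43e-07 in edgeR). SLC39A5 fell by 0.81 in S434A and by 0.69 in WT, and SLC39A3 fell by 0.70 and by 0.88. SLC39A4, the importer of dietary zinc in the intestine, fell in S434A by 0.53 and rose in WT by 0.92. After trend removal SLC39A14 stood at 0.04 in S434A (adjusted p = 0.573 in edgeR) and rose by 0.50 in WT, and SLC39A5, SLC39A3 and SLC39A4 fell in S434A by 0.46, 0.40 and 0.28. The SLC39A14 call in S434A passed in 5 of 12 fits with 1 library left out. Without H89, 3 importers were higher in S434A than in WT and 0 were lower as counted, where 29.0% and 29.3% of tested genes were, whereas 5 were higher and 4 lower with the trend removed, where 29.7% and 28.8% were. As counted, SLC39A4 was at 336 CPM in S434A and 142 CPM in WT (1.24, adjusted p = 0.000119 in edgeR).

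The other known targets of MTF1 mostly passed the test as counted. Of 5 listed and tested, 4 rose and 1 fell in S434A and 3 rose and 1 fell in WT, with medians of 0.82 and 0.65. SLC30A1 and SLC30A10 belong to this list and to the exporters, and SLC39A10 belongs to it and to the importers. SLC39A10 rose by 1.81 in S434A (adjusted p = 0.0190 in edgeR). It stood at 0.65 in WT (adjusted p = 0.284 in edgeR), the WT median of the list. The list was not split by whether MTF1 raises or lowers a gene. GCLC, the catalytic subunit of glutathione synthesis, rose by 0.82 in S434A and 0.93 in WT, and PGF, placental growth factor, fell by 0.41 and by 0.45. After removal of the trend 1 rose and 0 fell in S434A, and 2 rose and 1 fell in WT. GCLC then stood at 0.14 in S434A (adjusted p = 0.0701 in edgeR) and rose by 0.26 in WT, and PGF stood at -0.20 in S434A (adjusted p = 0.0534 in edgeR) and fell by 0.73 in WT.

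**Figure D5:**
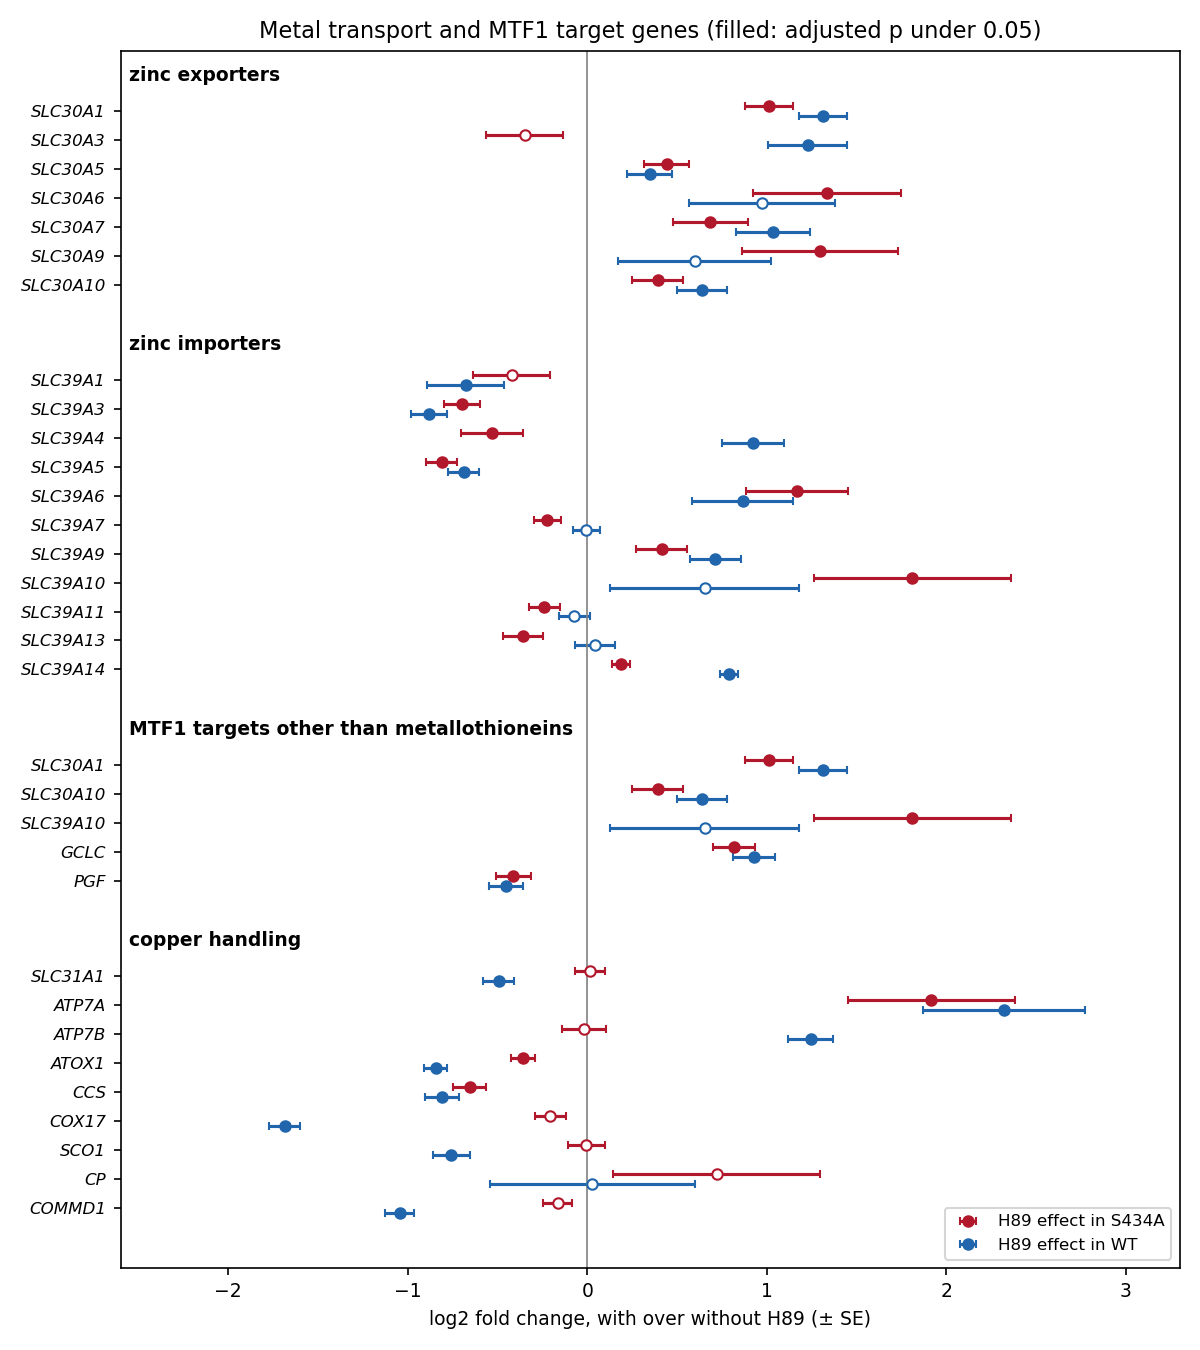
Log2 fold changes with H89 (± SE) of tested zinc exporters, zinc importers, MTF1 targets and copper handling genes in S434A (red, upper point of each pair) and WT (blue, lower point), filled where the adjusted p is under 0.05 in edgeR. Exporters lie mostly right of 0, with SLC30A1 at 1.01 and 1.31, and most copper genes lie left of 0 in WT, with COX17 at -1.68.

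Copper handling genes, whose products share metal with metallothioneins, include several that fell with H89 in WT. Of 9 tested among 11 listed, 1 rose and 2 fell with H89 in S434A, and 2 rose and 6 fell in WT, with medians of -0.02 and -0.76. With the trend removed, 1 rose and 5 fell in S434A and 1 rose and 6 fell in WT, so the counts of the genotypes were closer on that scale. In the test of the difference between the genotypes 5 were higher and 1 was lower as counted, against 24.0% of tested genes in each direction, and 4 and 1 were with the trend removed, against 23.7% and 24.3%. COX17, a copper chaperone of cytochrome c oxidase, had 18.4 CPM in WT with H89 and 59.3 CPM without it (-1.68, adjusted p = 3.12e-08 in edgeR) and stood at -0.21 in S434A (adjusted p = 0.0639 in edgeR). The cytosolic copper chaperone gene ATOX1 fell by 0.36 in S434A and by 0.85 in WT, and COMMD1, a regulator of copper export, stood at -0.17 in S434A (adjusted p = 0.109 in edgeR) and fell by 1.05 in WT. ATP7B, the copper-exporting ATPase of hepatocytes, stood at -0.02 in S434A (adjusted p = 0.919 in edgeR) and rose by 1.24 in WT, where it was at 0.17 (adjusted p = 0.0692 in edgeR) with the trend removed. Trend removal brought COX17 in S434A past the test, at -0.50 (adjusted p = 0.00491 in edgeR), and left it at -1.11 in WT, with ATOX1 at -0.76 in S434A and COMMD1 at -0.55 in WT.

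Other inducers of metallothioneins were followed through their own target genes. Of 9 metal and oxidative stress genes tested among 10 listed, 5 rose and 2 fell with H89 in S434A and 6 rose and 2 fell in WT, with medians of 0.60 and 0.54. Trend removal gave 4 and 3 in S434A and 5 and 2 in WT. HMOX1, heme oxygenase, had 96.8, 96.8 and 107 CPM in S434A with H89, against 71.8, 62.9 and 48.2 CPM without it (0.72, adjusted p = 0.00126 in edgeR). It had 100.3, 93.8 and 86.3 CPM in WT with H89, against 37.7, 35.9 and 35.7 CPM without it (1.36, adjusted p = 2.90e-06 in edgeR). HMOX1 rose in both genotypes with the trend removed too, at 1.10 and 1.80. The heat shock gene DNAJB1 fell by 0.38 in S434A and by 0.90 in WT, and NQO1, a quinone reductase, fell by 0.17 and by 0.77. SRXN1, sulfiredoxin, stood at -0.07 in S434A (adjusted p = 0.520 in edgeR) and rose by 0.45 in WT. SRXN1 rose in both after trend removal, by 0.25 and 0.96, whereas DNAJB1 fell by 0.15 in S434A, and NQO1 fell by 0.27 in S434A and by 0.42 in WT.

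Of 8 glucocorticoid-responsive genes tested among 9 listed, 3 rose and 4 fell with H89 in S434A and 4 rose and 4 fell in WT, with medians of -0.50 and 0.26. Trend removal left 1 that rose and 5 that fell in S434A, and 3 of each in WT. FKBP5, a receptor co-chaperone, rose by 0.66 in S434A and 1.11 in WT, and ERRFI1, an inhibitor of epidermal growth factor receptor signalling, by 0.62 and 1.07. SGK1, a kinase, fell by 0.997 in S434A and by 0.56 in WT, and TAT, tyrosine aminotransferase, fell by 0.51 and by 0.71. FKBP5 turned to -0.58 in S434A (adjusted p = 0.0232 in edgeR) and stood at 0.13 in WT (adjusted p = 0.510 in edgeR) once the trend was removed, and ERRFI1 stood at 0.09 in S434A (adjusted p = 0.539 in edgeR). SGK1 then fell by 2.41 in S434A, and TAT by 1.01. In WT, SGK1 fell by 1.51 with the trend removed and the replicate block added.

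Of 6 factors known at metallothionein promoters, all tested, 3 rose and 2 fell with H89 in S434A and 4 rose and 1 fell in WT, with medians of 0.24 and 0.93. Trend removal gave 3 and 1 in S434A and 3 and 2 in WT. EP300, an acetyltransferase and coactivator, had 62.0 CPM in S434A with H89 and 41.2 CPM without it (0.59, adjusted p = 0.000268 in edgeR). It had 69.5 CPM in WT with H89 and 12.9 CPM without it (2.43, adjusted p = 4.42e-09 in edgeR). SP1, which binds GC boxes, rose by 0.73 in S434A and 1.46 in WT, whereas USF1, which binds E boxes, fell by 0.40 and by 1.21. STAT3, the factor of the interleukin response, fell in S434A by 0.26 and rose in WT by 0.41. After trend removal STAT3 stood at -0.08 in WT (adjusted p = 0.130 in edgeR), SP1 at 0.15 in S434A (adjusted p = 0.102 in edgeR) and USF1 at -0.05 in S434A (adjusted p = 0.590 in edgeR). In WT on that scale SP1 rose by 0.87 and USF1 fell by 0.65.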

How the data were processed

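RNA was sequenced from 12 HepG2 libraries. The authors deposited raw counts, 1 whole number of read pairs for a gene and library, made with featureCounts 2.0.1 over exons of an hg19 annotation, per the file headers. The gene lengths in that table are another deposited quantity, the merged exon bases of a gene, per the file headers. Alignment with Bowtie 0.12.2 to hg19 is recorded per the submitters' processing notes. No option for strand, multimapping or overlap is set in the header.

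Of 62475 gene identifiers, 40676 were matched to a symbol. The quasi-likelihood F test of edgeR 4.0.16 (R 4.3.3, robust option) was run once on all 12 libraries, with TMM scaling and the filter filterByExpr at a minimum count of 10. In each of 5 comparisons, Benjamini-Hochberg adjustment covered all 14435 tested genes. Calls followed the study's rule (over 2-fold, adjusted p under 0.05), whereas "rose" and "fell" ask for that p alone, whatever the fold. Total counts ran from 17562754 to 37187794 per library, and a gene's precision is given by its count and the spread between replicates. The standard error is the size of the log2 fold change divided by the square root of F. Comparisons that involve the same group share its libraries. The fit was run on simulated counts with known changes in S434A without H89, for the comparison with WT without H89 only. The simulation gave all groups the same spread and no trend in length or GC content. It checked the code and does not bear on the calls.

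The members and gene lists were chosen with earlier results of these data known. All 7 members were named, with up to 4 genes of each other list by the smallest p for H89 in WT, the 5 genes most like each pattern, and the nearest tested genes beside the cluster. Positions are hg19. Sequences and GC content came from GENCODE and RefSeq on GRCh38 and were joined by gene identifier (14280 tested genes had a GC value).

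Alternatives were RLE and upper-quartile factors, no filter, at least 1 CPM in at least 3 libraries, the replicate number as a block, removal, library by library, of a smooth trend in length and GC content (splines with 5 degrees of freedom), both together, only the groups compared, limma-voom (limma 3.58.1) with and without a weight per group, DESeq2 1.42.0 and leaving out each library. The trend removal without replicate 1 of S434A without H89 was added after seeing the data.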

Additional observations from a re-analysis of the deposited data

Results flagged for a closer look

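The H89 effect on MTF1 differed between the genotypes by a test of the difference itself. MTF1 rose by 0.98 on the log2 scale in S434A and by 1.70 in WT, and the effect in S434A minus that in WT was -0.72 (adjusted p = 0.0384 in edgeR). In all 3 S434A libraries without H89 MTF1 was above all 3 WT libraries without H89, while the groups with H89 overlapped. The adjusted p was under 0.05 in 2 of 12 fits with 1 library left out. It was over 0.05 with RLE factors (0.0571), no filter (0.0735) and the replicate block (0.0551) in edgeR and with a weight per group in limma-voom (0.0805). The call held in 4 of 8 settings that kept the trend and all libraries, and with the trend removed. It thus depends on the settings.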

How the results depend on the processing

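The signs of the H89 changes of MT2A, MT1F and MTF1 in S434A and WT were the reported ones under every alternative, but MT2A in WT was at -0.01 (adjusted p = 0.911 in edgeR) with the trend removed, against -0.90 as counted, so its fall there was not found on that scale. Other scalings moved the median of all genes for H89 in WT by -0.15 (RLE) and -0.11 (upper quartile), and for H89 in S434A by -0.10 and -0.12; relative to the median, MT2A stood at -1.10 and MTF1 at 1.51 in WT with TMM, RLE and upper-quartile factors. Near the 2-fold bound, the count of members called lower with H89 in WT was 2 with RLE or upper-quartile factors, no filter, only the groups compared or DESeq2, and 0 with the trend removed, alone, with the replicate block or without replicate 1 of S434A without H89; it ran between 1 and 3 with 1 library left out. The count called higher in S434A against WT without H89 was 1 with only the groups compared, and 0 to 1 with 1 library left out. For H89 in S434A the count higher was 1 with limma-voom, with or without a weight per group, and 0 to 1 with 1 library left out, as was the count lower.

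Signs of small changes turned. For S434A against WT without H89, MT2A was -0.06 with RLE factors and DESeq2, -0.04 with no filter, and -0.05 to 0.03 with 1 library left out; MT1E was 0.03 with only the groups compared, and BBS2 was 0.13 there. BBS2 ran from -0.17 to 0.00 with 1 library left out (without replicate 1 of S434A without H89 at the upper end), and with H89 present from -0.07 to 0.03. For H89 in S434A, left-out fits gave -0.50 to 0.07 for MT1E, -0.19 to 0.10 for ATP7B and -0.23 to 0.00 for SRXN1; ATP7B was 0.01 with both limma-voom fits. NUP93 ran from -0.06 to 0.16 for H89 in WT.

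With the trend removed, without the block, with it, and without replicate 1 of S434A without H89, the values were as follows; the cause was not tested. For S434A against WT without H89, MT1E was 0.24, 0.24 and 0.29, BBS2 was 0.26 and 0.23 in the first 2, and NUP93 was -0.03 in the last. MT2A between the genotypes with H89 was -0.01 in all 3, and its difference of H89 effects was -0.44, -0.44 and -0.39. For H89 in S434A, MT1E was 0.23, 0.23 and 0.15, BBS2 -0.86, -0.83 and -0.51, SLC30A7 -0.67, -0.68 and -0.36, SRXN1 0.25, 0.25 and 0.27, and FKBP5 -0.58, -0.57 and -0.31. SLC30A1 was -0.25 and -0.24 in the first 2, and SLC30A3 was 0.02 in the last. For H89 in WT, MT1E was 0.09, 0.09 and 0.06, BBS2 -0.54 in all 3, NUP93 -0.60, -0.61 and -0.60, and STAT3 -0.08 in all 3. Over all genes the trend removal left 366 called higher and 530 lower for H89 in S434A, against 2201 and 339 as counted, and 1929 and 2100 for H89 in WT, against 3201 and 2285.

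The correlations of same-numbered libraries (18 pairs, r from -0.15 to 0.47, 4 over 0.1) do not show that replicate numbers pair the samples. With the replicate block the MTF1 difference of H89 effects was -0.70 (adjusted p = 0.0551 in edgeR) and BBS2 for H89 in WT 0.22 (adjusted p = 0.0649 in edgeR), and no other named gene changed its call. For H89 in S434A, NQO1 and PGF missed the test in 2 of 9 settings that kept the trend and all libraries, and NUP93, SLC39A4, STAT3 and USF1 in 1 of 9. The counts of MT1E and MT1F, from 14 to 74 read pairs per library, limit their precision.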
